A study of Mus musculus with 32 samples.

Results

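A set of 8 genes for transcription factors of the vascular endothelium, Sox17, Sox18, Sox7, Erg, Ets1, Tal1, Gata2 and Klf2, were followed in all 32 tumor libraries of the study. The rule that chose them lists them by name, as 8 of the 54446 genes counted, and was written with earlier results of these data known. The 8 genes are all protein coding, and all 8 passed the filter on low counts in every comparison.

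The study treated mice with regorafenib, an oral inhibitor of several kinases that include VEGF receptors, and sequenced messenger RNA of whole liver tumors. The tumors were grown from BNL-MEA, a mouse liver cancer cell line, in the liver of immune-competent BALB/c mice. Treatment in the comparison with DC-101 lasted 5 days. The study set out to describe how regorafenib modulates immunity and to explore which dose is effective. Its comparison with DC-101 looked for possible immune effects that do not depend on VEGFR2. The study ran 3 experiments, called cohorts here, each with its own vehicle group. In the dose cohort, 4 vehicle tumors stood beside 3 from mice given regorafenib at 5 mg/kg/day (the low dose) and 3 given 20 mg/kg/day (the high dose). In the DC-101 cohort, 4 vehicle tumors stood beside 3 given the low dose and 3 given DC-101, an antibody to mouse VEGFR2, at 800 ug on days 1, 3 and 5. In the anti-PD1 cohort, 3 tumors each came from vehicle, the low dose, an antibody to the T cell checkpoint PD1, and the low dose together with anti-PD1. All groups carried the same tumor line in the same strain, so every value below is for 1 tumor model. Libraries were of bulk tumor, in which fewer endothelial cells and less RNA per endothelial cell cannot be told apart.

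The SoxF proteins (Sox7, Sox17 and Sox18) and the ETS proteins (Erg and Ets1) bind, often side by side, at enhancers of genes that make a cell endothelial, such as Cdh5 and Tek. Tal1 and Gata2 act in both endothelial and blood cell development, and Gata2 is also made by mast cells and stromal cells. Klf2 is switched on by blood flow and keeps endothelium quiescent, but T cells and macrophages make it as well, and Ets1 is also abundant in lymphocytes.

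Libraries held 16767130 to 27693689 counted reads in the dose cohort, 17936497 to 25489496 in that of DC-101 and 20463408 to 25336811 in that of anti-PD1. The endothelial markers Pecam1 (16.3 to 155 CPM, counts scaled to library size), Cdh5 (10.3 to 165 CPM) and Kdr (8.44 to 58.2 CPM) were present in every library. Liver tissue varied widely, with Alb, made by hepatocytes, from 11 to 26400 CPM. A single library, replicate 1 of the high dose, stood apart, with the highest mitochondrial share (5.37%) and the highest hepatocyte score (12.13, averaged as log2 CPM over 14 genes of hepatocytes). In the anti-PD1 cohort mitochondrial shares were 0.26% to 1.9% with vehicle and 0.31% to 2.23% at the low dose. They were 0.37% to 0.68% with anti-PD1 and 1.36% to 2.34% with the combination. The part of these shares in the values below was not tested. Levels below are log2 CPM after TMM scaling within each cohort, and changes are log2 differences from the vehicle group of the same cohort, tested with the quasi-likelihood test of edgeR, with p adjusted over all genes and called under 0.05.

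In vehicle tumors the 8 genes spanned a wide range of levels. Compared per length of transcript (RPKM, n = 11), Ets1 was at a median of 12.2 (9.81 to 18.9). Klf2 was at 11.7 (5.65 to 38.8) and Sox18 at 6.85 (3.51 to 18). These 3 led the order, and Ets1 and Klf2 did not differ beyond their spread, with Ets1 higher in 6 of 11 libraries. Gata2 was at 3.92 (2.56 to 5.43), Erg at 2.09 (1.42 to 4.94) and Sox7 at 1.08 (0.423 to 2.39). Gata2 was above Erg, and Erg above Sox7, in 11 of 11 libraries. Tal1 was at 0.820 (0.458 to 1.07), and Sox17 was lowest at 0.638 (0.460 to 1.16). The mean log2 RPKM of Klf2 and Sox18, of Sox7 and Tal1, and of Tal1 and Sox17 differed by less than the SD of the differences between libraries. Sox17 therefore rested on few reads, between 8 and 140 per library, against 920 to 3572 for Ets1.

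Start sites in RefSeq were listed for Erg, Klf2, Tal1 and Gata2. Promoter windows of 300 bases (250 before and 50 after the start, GRCm38.p6) of Erg and Klf2 are shown because Erg fell with the low dose and Klf2 did not pass the test. Capitals mark letters of the SOX core AACAAT, searched on both strands like every motif here. They also mark the core bound by GATA zinc finger factors, with the letters AGATAA. In the Klf2 window they mark the MEF2 core, a palindrome with free bases in its center. The Erg windows are the outermost start, at chr16:95586544-95586843, and an inner start within the gene, at chr16:95459299-95459598, both on the minus strand. The Klf2 window is chr8:72318812-72319111, on the plus strand.
Erg outermost start: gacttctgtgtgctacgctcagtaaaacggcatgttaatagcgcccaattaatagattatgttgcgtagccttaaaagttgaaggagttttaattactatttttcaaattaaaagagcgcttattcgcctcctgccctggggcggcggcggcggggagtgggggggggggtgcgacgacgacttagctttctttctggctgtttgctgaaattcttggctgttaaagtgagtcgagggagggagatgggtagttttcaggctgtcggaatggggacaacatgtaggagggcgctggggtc
Erg inner start: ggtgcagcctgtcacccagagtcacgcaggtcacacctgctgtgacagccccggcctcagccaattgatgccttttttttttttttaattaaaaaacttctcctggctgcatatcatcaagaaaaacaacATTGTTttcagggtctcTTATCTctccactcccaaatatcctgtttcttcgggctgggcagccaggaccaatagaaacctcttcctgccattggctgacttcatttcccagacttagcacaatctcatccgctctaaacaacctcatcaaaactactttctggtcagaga
Klf2: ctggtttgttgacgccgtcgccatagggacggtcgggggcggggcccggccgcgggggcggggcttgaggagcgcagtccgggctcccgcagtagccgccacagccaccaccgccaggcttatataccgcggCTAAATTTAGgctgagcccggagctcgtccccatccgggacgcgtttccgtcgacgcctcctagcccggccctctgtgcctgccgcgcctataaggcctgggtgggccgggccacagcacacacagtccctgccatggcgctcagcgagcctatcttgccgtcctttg
The outermost Erg window held none of the cores searched, nor did a further inner window at chr16:95530316-95530615, on the minus strand, which is not printed. The inner Erg window held 1 SOX core, in reverse at base 131, and 1 GATA core, in reverse at base 148. A SOX core was in 10.7% and a GATA core in 11.2% of the 32851 promoter windows of the genome, so these are common letters. The Klf2 window held 1 MEF2 core at base 133, which 3.7% of all windows hold. The ETS core GGAAGT, in 23.8% of all windows, was in none of the 8 start windows of Erg, Klf2, Tal1 and Gata2, and the KLF core CACACCC, in 8.0% of all windows, was also in none. The E-box CAGCTG, in 16.3% of all windows, was in 1 of the 8, the inner window of Gata2. A GATA core was also in a window of Tal1 that is not printed, at chr4:115056176-115056475, in reverse at base 46. No window outside Erg held a SOX core.

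**Figure D1:**
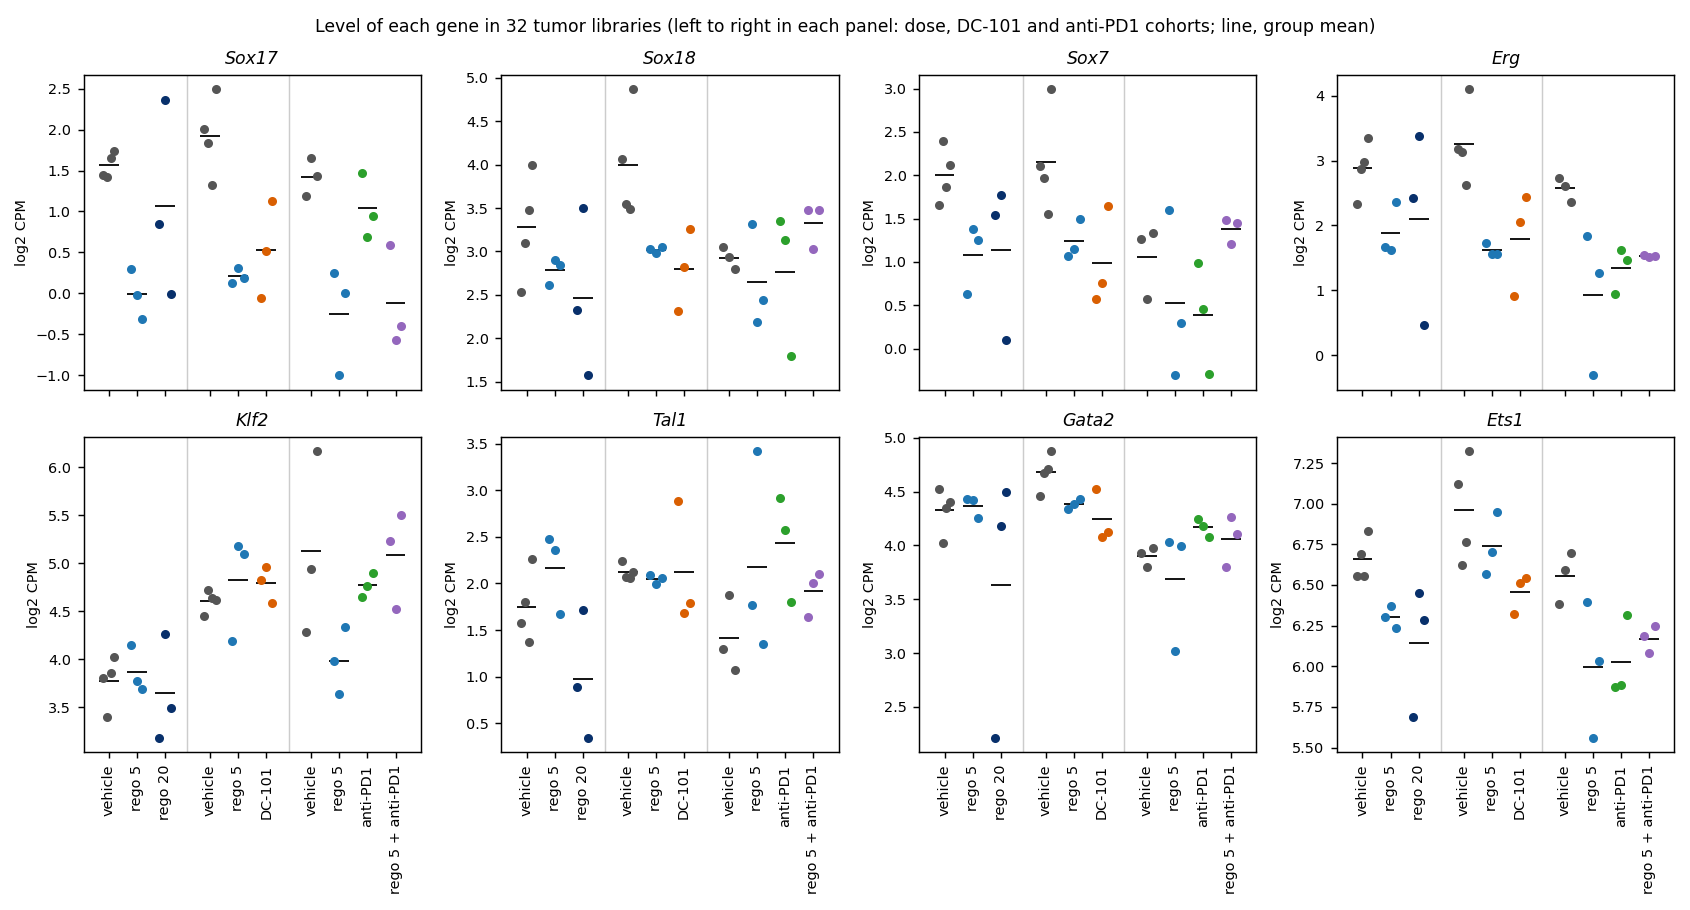
Level of each gene (log2 CPM, vertical axis, scaled separately in each panel) in each of 32 tumors, by treatment group and cohort. Each point is 1 library and each line the mean of a group. All 9 low dose points of Sox17 (highest 0.31) lie below all 11 vehicle points (lowest 1.19), while the low dose and vehicle points of Klf2 and Tal1 mix in each cohort.

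Sox17 and Erg fell with the low dose, and no other of the 8 genes passed the test. Fitted over 3 cohorts (9 low dose and 11 vehicle libraries), Sox17 fell by 1.74 on the log2 scale (SE 0.19, adjusted p = 9.82e-05), to 0.300 of its vehicle level. Erg fell by 1.42 (SE 0.25, adjusted p = 0.00433), to 0.374. These 2 calls of 8 stand beside 1.77% called among 15562 genes tested, 1.04% of them lower. At an unadjusted p under 0.05, 5 of the 8 genes were past it, beside 16% of all genes. Limma voom called 2 of the 8 (1.96% of all genes), and DESeq2 called 5 (5.76%), adding Sox18, Sox7 and Ets1. The median change was -0.52 over the 8 genes and 0.03 over all genes.

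Sox17, a SoxF factor tied to arterial endothelium, was at 1.44, 1.42, 1.65 and 1.73 log2 CPM in the vehicle tumors of the dose cohort, against 0.29, -0.01 and -0.31 at the low dose. In the DC-101 cohort it was at 2.01, 1.83, 1.33 and 2.50 with vehicle, against 0.13, 0.31 and 0.19. In the anti-PD1 cohort it was at 1.19, 1.65 and 1.43 with vehicle, against 0.24, -1.0 and 0.00. The groups did not overlap in any of the 3 cohorts, and each of the 9 low dose libraries was below its own vehicle mean, as held for 2.56% of all genes. The log2 change was -1.66 in the dose cohort, -1.85 in the DC-101 cohort and -1.70 in the anti-PD1 cohort.

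Erg, an ETS factor that maintains endothelial identity and junctions, was at 2.33, 2.87, 2.97 and 3.35 log2 CPM in vehicle tumors of the dose cohort, and at 1.67, 1.63 and 2.35 at the low dose. In the DC-101 cohort the vehicle values were 3.19, 3.13, 2.62 and 4.11, against 1.73, 1.57 and 1.55. In the anti-PD1 cohort they were 2.74, 2.62 and 2.36, against 1.83, -0.31 and 1.27. All 9 low dose libraries were below their own vehicle mean, but the groups overlapped in the dose cohort, where 1 low dose tumor (2.35) passed the lowest vehicle tumor (2.33). The changes were -1.05, -1.78 and -1.45 in the 3 cohorts in this order. The call of Erg was lost without the dose cohort (-1.64, adjusted p = 0.0637) and without the DC-101 cohort (-1.23, adjusted p = 0.146), whereas that of Sox17 held without any 1 cohort.

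The other SoxF genes were lower in most low dose tumors without passing the test. Sox18, which acts in vessel and lymphatic development, was at 2.53, 3.10, 3.48 and 4.0 log2 CPM with vehicle against 2.61, 2.90 and 2.85 at the low dose in the dose cohort. Vehicle values were 4.06, 3.54, 3.49 and 4.87 against 3.02, 2.98 and 3.05 in the DC-101 cohort, and 3.05, 2.94 and 2.80 against 3.32, 2.18 and 2.44 in the anti-PD1 cohort. The groups were apart in the DC-101 cohort alone, and 8 of 9 low dose libraries were below their vehicle mean. The change over 3 cohorts was -0.66 (SE 0.22, adjusted p = 0.128).

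Sox7, the SoxF gene most linked to the earliest endothelial and blood precursors, was at 1.65, 2.4, 1.86 and 2.12 log2 CPM with vehicle against 0.63, 1.38 and 1.25 at the low dose in the dose cohort. In the DC-101 cohort it was at 2.10, 1.96, 1.56 and 3.00 against 1.06, 1.15 and 1.5, and in the anti-PD1 cohort at 1.27, 0.57 and 1.33 against 1.60, -0.31 and 0.30. The groups were apart in the first 2 cohorts and overlapped in the last, where replicate 1 of the low dose was above every vehicle tumor. The change over 3 cohorts was -0.82 (SE 0.25, adjusted p = 0.102). It passed the test without that replicate (-1.04, adjusted p = 0.0165).

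Ets1, a factor of both endothelium and lymphocytes, did not pass the test either. It was at 6.55, 6.69, 6.56 and 6.83 log2 CPM with vehicle against 6.30, 6.37 and 6.24 at the low dose in the dose cohort. It was at 7.12, 6.62, 6.76 and 7.32 against 6.57, 6.70 and 6.95 in the DC-101 cohort, and at 6.38, 6.59 and 6.69 against 6.39, 5.56 and 6.03 in the anti-PD1 cohort. All 9 low dose libraries were below their vehicle mean, lying at -0.99 to -0.01 from it, and the groups were apart in the dose cohort alone. The change was -0.38 (SE 0.11, adjusted p = 0.0709).

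Klf2, Tal1 and Gata2 showed no common direction. Klf2, the flow-responsive gene, had a change of -0.28 (SE 0.25, 95% interval -0.81 to 0.25, adjusted p = 0.647) over 3 cohorts. It came from 1 cohort. Changes were 0.07 in the dose and 0.27 in the DC-101 cohort, and -1.37 in the anti-PD1 cohort, where vehicle tumors were at 4.28, 4.94 and 6.17 log2 CPM and low dose tumors at 3.98, 3.63 and 4.34. The vehicle tumor at 6.17 carried much of that value, since the change was -0.64 in the same cohort without it. The edgeR test of a low dose change unequal among the 3 cohorts gave its smallest p of the 8 for Klf2 (adjusted p = 0.424). In that test 0 of 8 genes were called (0% of all genes), 1 was under 0.05 unadjusted (9.52% of all genes), limma voom called 0 (0%) and DESeq2 called 0 (0.631%).

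Tal1, a helix-loop-helix factor of blood and vessel precursors, had a change of 0.44 (SE 0.26, 95% interval -0.10 to 0.98, adjusted p = 0.430). A single tumor, replicate 2 of the low dose in the anti-PD1 cohort, was at 3.42 log2 CPM, the highest of all 32 libraries, and without it the change was 0.13. The same tumor held the lowest value of Sox17 (-1.0, 8 reads), Erg (-0.31, 14 reads) and Sox7 (-0.31, 14 reads). Gata2, the zinc finger partner of Tal1 in blood and vessels, had a change of -0.15 (SE 0.11, 95% interval -0.39 to 0.08, adjusted p = 0.538), and its low dose values lay between 3.02 and 4.43 log2 CPM. In the DC-101 cohort alone its groups were apart, at 4.46, 4.67, 4.71 and 4.88 with vehicle against 4.34, 4.39 and 4.43.

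**Figure D2:**
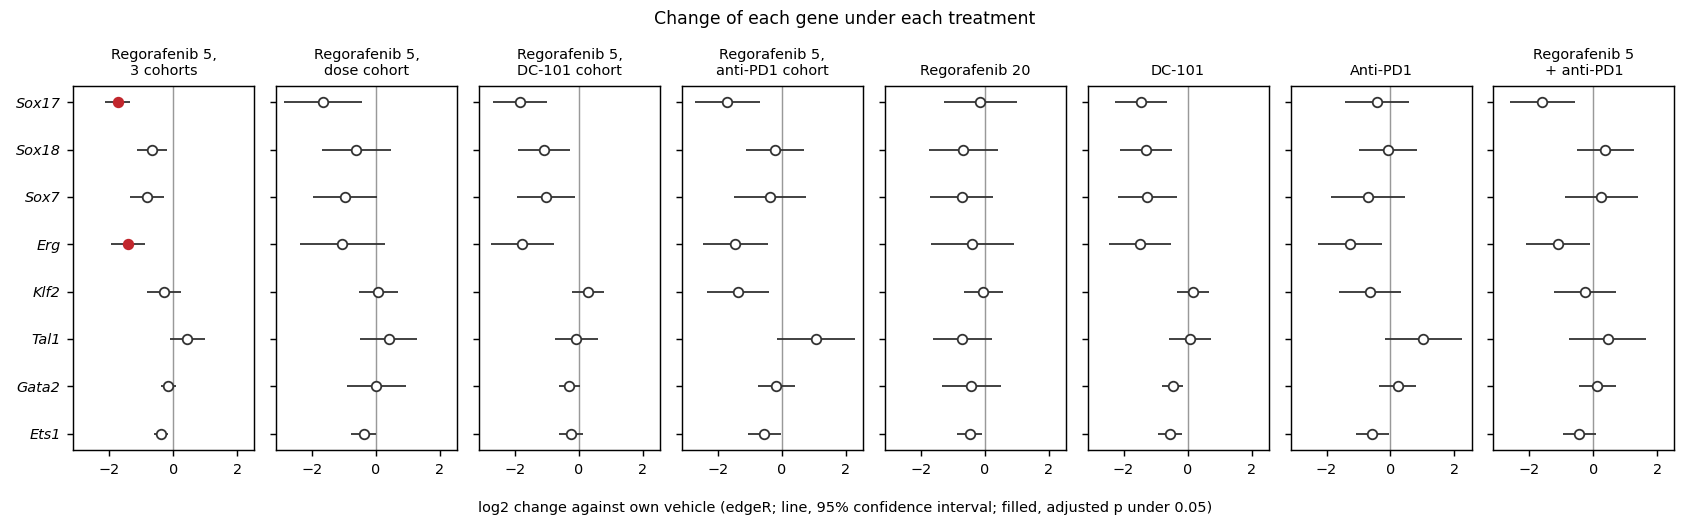
Log2 change of each gene against the vehicle group of its own cohort (horizontal axis), for the low dose over 3 cohorts and for each treatment group. Points are edgeR estimates, lines 95% confidence intervals, and filled points have an adjusted p under 0.05, which only Sox17 (-1.74) and Erg (-1.42) have, in the fit over 3 cohorts.

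Within a single cohort none of the 8 genes was called for the low dose. In the dose cohort edgeR called 0 (0% of all genes) and 1 of 8, Sox17, was under 0.05 unadjusted (4.94% of all genes). In the DC-101 cohort it called 0 (0.0248% of all genes), with Sox17, Erg, Sox18 and Sox7 under 0.05 unadjusted (17.1% of all genes), and in the anti-PD1 cohort 0 (0%), with Sox17, Erg, Klf2 and Ets1 under it (11.8%). Limma voom also called 0 in each (0%, 0.0248% and 0% of all genes). DESeq2 called 0 (0.518% of all genes with an adjusted p), 2 (7.09%) and 2 (2.73%), Sox17 and Erg in both cases. Groups lay apart, with the low dose lower, for 3 of 8 genes in the dose cohort (5.91% of all genes), 5 in the DC-101 cohort (9.42%, the SoxF genes, Erg and Gata2) and 2 in the anti-PD1 cohort (7.35%). Sox17 was among them each time.

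At the high dose none of the 8 genes was called, although 15.6% of 16525 genes were called. A count of 1, Ets1, was under 0.05 unadjusted (40.1% of all genes), limma voom called 0 (8.16%) and DESeq2 called 0 (32.2%). Sox17 was at 0.84, 2.37 and -0.01 log2 CPM in the 3 high dose tumors, and Erg at 2.43, 3.38 and 0.47. The spread was wide, and both genes had the same order as the endothelial score of these tumors (4.11, 5.10 and 3.11), the mean log2 CPM of 22 endothelial genes. The changes against vehicle were -0.14 (95% interval -1.28 to 1.0) for Sox17 and -0.39 (-1.68 to 0.91) for Erg. Both values rested on replicates 2 and 3, since without replicate 2 they were -1.09 and -1.13, and without replicate 3 they were 0.25 and 0.06. Ets1, at 5.69, 6.45 and 6.28, lay below every vehicle tumor, the 1 of 8 genes whose groups were apart and lower (16% of all genes). Its change was -0.47 (SE 0.17, adjusted p = 0.0756), or -0.28 (SE 0.12, adjusted p = 0.158) without replicate 1, the library that stood apart. Changes were -0.67 for Sox18, -0.73 for Sox7, -0.70 for Tal1 and -0.05 for Klf2, with intervals that include 0.

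Set directly against the low dose, the high dose had 0 of 8 genes called (4.22% of all genes) and 2 under 0.05 unadjusted (29.3%). Limma voom called 0 (4.73% of all genes) and DESeq2 called 1, Sox17 (18.6%). Sox17 was 1.52 higher at the high dose (SE 0.56, adjusted p = 0.123), but 0.55 higher without replicate 2 of the high dose, and 1.90 higher without replicate 3 (adjusted p = 0.0271). Tal1 was at 0.89, 1.71 and 0.34 log2 CPM at the high dose, against 2.47, 2.35 and 1.67 at the low dose, a difference of -1.09 (SE 0.43, adjusted p = 0.140). Macrophage markers moved with it, with 7 of 8 called lower at the high than at the low dose, and a score of 5.49 to 6.76 against 8.21 to 8.43. Their part in the value of Tal1 was not tested. Gata2 lay outside its usual range in 1 high dose tumor, replicate 1 (2.21, against 4.18 and 4.50 in the others), which is the library with the highest hepatocyte score, and without it the change against vehicle was 0.03 in place of -0.41.

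DC-101 blocks VEGFR2 alone, and was compared with the low dose to separate that from the other effects of regorafenib. EdgeR called 0 of 8 genes (0% of all genes), while 6 of 8 were under 0.05 unadjusted (13.2% of all genes), limma voom called 0 (0%) and DESeq2 called 3, Sox17, Sox18 and Erg (2.8% of all genes). Sox17 was at -0.06, 0.51 and 1.13 log2 CPM in the DC-101 tumors, with no overlap with vehicle, a change of -1.46 (SE 0.37, adjusted p = 0.309). Erg was at 0.91, 2.05 and 2.43, also below every vehicle tumor, a change of -1.49 (SE 0.43, adjusted p = 0.316). The SoxF genes lay close together, since Sox18, at 2.31, 2.82 and 3.25, had a change of -1.30, and Sox7, at 0.57, 0.76 and 1.65, one of -1.26. Ets1 (-0.55) and Gata2 (-0.46) were the others under 0.05 unadjusted, and Klf2 (0.16) and Tal1 (0.08) were near 0. Groups lay apart and lower for 4 of 8 genes (6.95% of all genes), Sox17, Sox18, Erg and Ets1.

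Between DC-101 and the low dose, edgeR called 0 of 8 genes (0% of all genes), 0 were under 0.05 unadjusted (8.45% of all genes), limma voom called 0 (0%) and DESeq2 called 0 (1.41%). The difference, DC-101 minus low dose, was 0.39 for Sox17 (95% interval -0.48 to 1.26) and 0.28 for Erg (-0.72 to 1.28). It was -0.20 for Sox18 (-1.04 to 0.64), -0.22 for Sox7 (-1.17 to 0.74) and -0.31 for Ets1 (-0.71 to 0.09). With 3 tumors a group these intervals are wide, and they do not show that both agents act alike on these genes. Ets1 was at 6.32, 6.51 and 6.54 with DC-101, below all 3 low dose tumors (1 of 8 genes, 4.96% of all genes). Liver tissue differed between the groups of this cohort, with hepatocyte scores of -0.23 to 6.47 in vehicle, 5.46 to 8.95 in low dose and 1.51 to 9.85 in DC-101 tumors. With that score as a covariate the low dose changes over 3 cohorts were -1.62 for Sox17 (adjusted p = 0.000275) and -1.33 for Erg (adjusted p = 0.0143).

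Anti-PD1 alone, which acts on T cells, was compared with the combination to ask what regorafenib adds. None of the 8 genes was called in edgeR (0% of all genes), 2 of 8 were under 0.05 unadjusted (13.7% of all genes), limma voom called 0 (0%) and DESeq2 called 0 (3.71%). Erg was at 0.95, 1.63 and 1.46 log2 CPM and Ets1 at 5.87, 5.88 and 6.32, both below every vehicle tumor, with changes of -1.28 and -0.57. Groups were apart and lower for these 2 of 8 genes (8.39% of all genes), and apart and higher for 1, Gata2 (8.68%), at 4.25, 4.18 and 4.08 against 3.93, 3.80 and 3.98. Sox17, at 1.47, 0.69 and 0.95, overlapped with vehicle, and its change was -0.42 (95% interval -1.41 to 0.56). Tal1, at 2.92, 2.57 and 1.80 against 1.29, 1.88 and 1.07, had a change of 1.02 (-0.19 to 2.23) with groups that overlapped. Changes were -0.71 for Sox7, -0.64 for Klf2 and -0.08 for Sox18, with intervals that include 0.

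With regorafenib and anti-PD1 together, no gene of the 8 passed the test. EdgeR called 0 of 8 genes (0% of all genes), 2 were under 0.05 unadjusted (8.2% of all genes), limma voom called 0 (0%) and DESeq2 called 0 (0.961%). Sox17 was at 0.59, -0.57 and -0.40 log2 CPM, a change of -1.60 (SE 0.47, adjusted p = 0.480), and Erg at 1.55, 1.51 and 1.54, a change of -1.11 (SE 0.45, adjusted p = 0.572). Both lay below every vehicle tumor, as did Ets1, at 6.18, 6.08 and 6.25 (3 of 8 genes, 6.7% of all genes). Sox18 was at 3.48, 3.03 and 3.48 and Sox7 at 1.48, 1.21 and 1.45, with changes of 0.37 (95% interval -0.52 to 1.27) and 0.25 (-0.88 to 1.38). Changes were 0.44 for Tal1, -0.26 for Klf2 and 0.12 for Gata2, with intervals that include 0.

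Against anti-PD1 alone, the combination had 0 of 8 genes called (0% of all genes) and 1, Sox17, under 0.05 unadjusted (8.68% of all genes), limma voom called 0 (0%) and DESeq2 called 0 (1.16%). Sox17 was 1.17 lower (SE 0.46, adjusted p = 0.507), and the groups did not overlap. This held for 1 of 8 genes downward (13.8% of all genes) and for 1, Sox7, upward (16.2%), which was 0.96 higher with the combination (95% interval -0.19 to 2.11).

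The wider endothelial program was read from gene lists. Of 22 endothelial identity genes, 12 were called lower and 1 higher with the low dose over 3 cohorts, with a median change of -1.15. Cldn5, a tight junction protein, fell by 2.45 (SE 0.28, adjusted p = 0.000115), Flt1, the VEGF receptor 1, by 1.61 and Esam, an endothelial adhesion molecule, by 1.38. Icam2, another adhesion molecule, fell by 1.35, and the gene that rose was Cd34 (0.55, adjusted p = 0.0437), which stromal cells also make. Of 16 genes reported as targets of the 8 factors, 8 were called lower and 2 higher (median -1.05), 10 of these 16 being also in the identity list. Dll4, the arterial Notch ligand, fell by 1.55 (adjusted p = 0.000115), Cdh5, VE-cadherin, by 1.25, and Vcam1, an inflammatory adhesion molecule, rose by 0.67 (adjusted p = 0.00711). Beside these, 1.77% of all 15562 genes were called, 1.04% lower, and the median over all of them was 0.03.

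Of 30 other transcription factors of endothelium listed, 26 were tested, and 1 was called lower and 1 higher (median -0.11), beside 1.77% of all genes called. Bcl6b, an endothelial repressor, fell by 1.15 (SE 0.19, adjusted p = 0.00301). Lmo2, the bridging partner of Tal1 and Gata2 that macrophages and blood cells also make, rose by 0.58 (SE 0.13, adjusted p = 0.0219). Klf4 (-0.68, adjusted p = 0.0994) and Id1 (-0.52, adjusted p = 0.0998) did not pass. Among the 8 sinusoidal genes 0 were called in edgeR (1 under 0.05 unadjusted, beside 16% of all genes, median -0.10), with Lyve1 at -1.71 (adjusted p = 0.225) and Bmp2 at -0.77 (adjusted p = 0.362). By cohort their median change was -0.15 in the dose, 0.38 in the DC-101 and -2.24 in the anti-PD1 cohort. There 6 of 8 were under 0.05 unadjusted (11.8% of all genes) and 0 called (Lyve1 -4.18, adjusted p = 0.246). Clec4g, another sinusoidal marker, was at -3.10 there (SE 1.08, adjusted p = 0.306) and at 3.17 in the DC-101 cohort (SE 1.95, adjusted p = 0.413). It had no reads in 3 of the 32 libraries. The edgeR test of a change unequal among cohorts called 0 of the 8 sinusoidal genes (3 under 0.05 unadjusted, beside 9.52% of all genes). Of 5 lymphatic genes tested 0 were called (3 under 0.05 unadjusted, median 0.35), with Pdpn at 0.85 (adjusted p = 0.0591) and Flt4 at -1.11 (adjusted p = 0.160). Of 8 pericyte and smooth muscle genes 1 was called, Kcnj8, a channel of pericytes, which fell by 1.76 (adjusted p = 0.00385, list median -0.55).

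**Figure D3:**
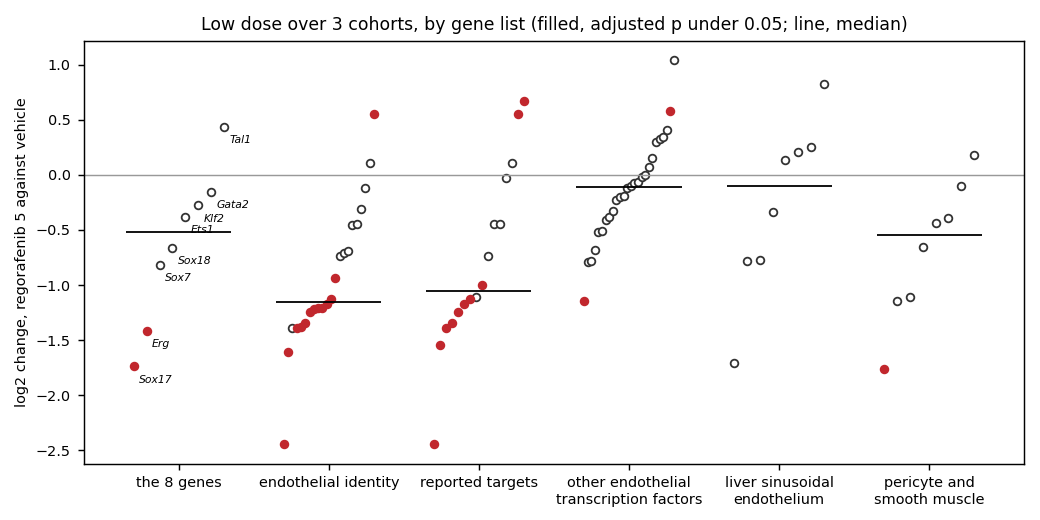
Log2 change with the low dose over 3 cohorts (vertical axis) for the 8 genes and for 5 gene lists. Each point is 1 gene, filled where the adjusted p is under 0.05, and lines are medians, at -0.52 for the 8 genes, -1.15 for endothelial identity and -0.11 for other endothelial transcription factors.

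Sox17 and Erg were also set against the mean of 22 endothelial genes of the same tumors, although single genes of that list, such as Cldn5 (-2.45) and Flt1 (-1.61), had changes of like size or larger. The endothelial score was 4.25 to 5.12 with vehicle and 3.63 to 4.27 at the low dose in the dose cohort, 4.40 to 5.33 and 3.60 to 4.20 in the DC-101 cohort, and 4.22 to 4.75 and 3.08 to 3.87 in the anti-PD1 cohort. Taking each gene minus this score, and each library against its own vehicle mean, Sox17 was at -0.74 ± 0.41 (SD, n = 9) at the low dose and Erg at -0.51 ± 0.48, both below 0 in 9 of 9 libraries. Sox18 (0.33 ± 0.43) and Sox7 (0.12 ± 0.46) kept nearer to the score. Klf2 (0.63 ± 0.70) was above 0 in 7 of 9 libraries, Ets1 (0.53 ± 0.24) in 8 of 9, and Gata2 (0.76 ± 0.31) and Tal1 (1.28 ± 0.92) in 9 of 9.

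In the combination group the SoxF genes parted by the same measure, with Sox17 at -1.01 ± 0.51 (SD, n = 3), Sox18 at 0.94 ± 0.01 and Sox7 at 0.86 ± 0.11. With DC-101 all 3 were below 0, Sox17 at -0.62 ± 0.02, Sox18 at -0.43 ± 0.11 and Sox7 at -0.39 ± 0.20. Erg was below 0 in all 3 libraries of each of these groups, at -0.50 ± 0.24 in the combination and -0.69 ± 0.29 with DC-101, and also with anti-PD1 alone (-0.69 ± 0.38). These are descriptions with no test, and the SDs leave out the spread of the vehicle tumors. For gene minus score, the SD of the anti-PD1 cohort's vehicle tumors was 0.311 for Sox17, 0.197 for Sox18 and 0.655 for Sox7. In vehicle tumors of the DC-101 cohort it was 0.18 for Sox17. With the endothelial score as a covariate in edgeR, which overlaps with the treatment itself, none of the 8 genes was called for the low dose over 3 cohorts (1 under 0.05 unadjusted, and 0 of all 15562 genes called). Sox17 was then at -1.23 (SE 0.31, adjusted p = 0.657) and Erg at -0.19 (SE 0.29, adjusted p = 0.9996).

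**Figure D4:**
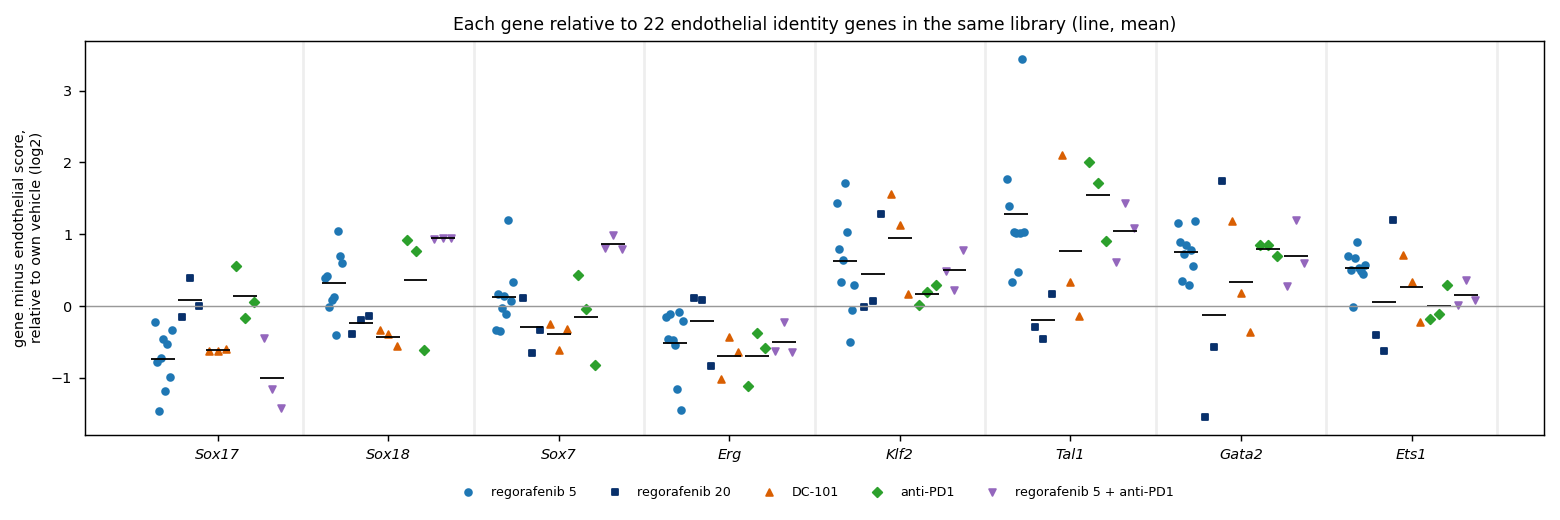
Each gene minus the mean log2 CPM of 22 endothelial genes in the same library, relative to the vehicle mean of its cohort (vertical axis, log2). Points are the 21 treated libraries by treatment and lines are means. Sox17 at the low dose lies between -1.46 and -0.22, whereas Gata2 lies between 0.30 and 1.19.

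Across all 32 libraries, with each cohort centered on its own mean, the 8 genes split into those that ran with endothelial markers and those that did not. Pearson r with the endothelial score was 0.93 for Erg, 0.83 for Sox17, 0.78 for Sox18, 0.76 for Sox7 and 0.66 for Ets1. It was 0.25 for Klf2, 0.15 for Gata2 and -0.09 for Tal1. Among the first 4, r lay between 0.57 (Sox17 and Sox7) and 0.86 (Sox18 and Sox7), and it was 0.81 for Sox17 and Erg. The libraries share treatments and depth, so these values describe the tumors sampled and carry no test.

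The genes whose pattern was nearest to the mean of the 8, among 12851 ranked, were Cdh5 (r = 0.949, n = 32), Nos3 (0.914), Tie1 (0.902), Esam (0.901), Pecam1 (0.900), Ptprm (0.889), Rasip1 (0.888), Nid2 (0.880), Plekhg1 (0.880) and Myzap (0.874). Of these, Cdh5, Tie1, Esam, Pecam1 and Rasip1 were in the list of endothelial identity and Nos3, the endothelial nitric oxide synthase, in that of targets. Taken one by one, Erg was nearest to Adgrf5 (0.961), Robo4 (0.948) and Ldb2 (0.925), and Sox17 to Esam (0.870), Pecam1 (0.849) and Egfl7 (0.839). Sox18 was nearest to Rasip1 (0.825), Tie1 (0.813) and Cdh5 (0.811), Sox7 to Plekhg1 (0.888), Kit (0.859) and Nos3 (0.830), and Ets1 to F2r (0.840), Camk2d (0.839) and Ptprm (0.813).

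The other 3 had neighbors of another kind. Klf2 was nearest to Sema6b (0.754), Chst12 (0.750) and Fos (0.727), an immediate early gene, and its r with the score of 10 immediate early genes was 0.58, or 0.34 without the 2 libraries farthest from the median of that score. Gata2 was nearest to Ehd2 (0.912), Lix1l (0.906) and Fkbp10 (0.905), of which Fkbp10 acts in collagen folding. Its r was -0.55 with the hepatocyte score and 0.54 with the macrophage score, the latter 0.31 without the 2 libraries farthest from the median of that score. Tal1 was nearest to Tmsb4x (0.804), Rpl7l1 (0.774) and D6Wsu163e (0.767), and its r with the macrophage score was 0.58, or 0.44 without the same 2 libraries. Mast cells also make Gata2 and Tal1. Of their 8 markers 6 had a mean under 1 CPM. Fcer1a was at 0 in 23 of 32 libraries and Ms4a2 in 10, while Cpa3 reached 2.25 CPM, Tpsb2 3.43 CPM and Cma1 3.53 CPM. The part of mast cells in these values was not tested.

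**Figure D5:**
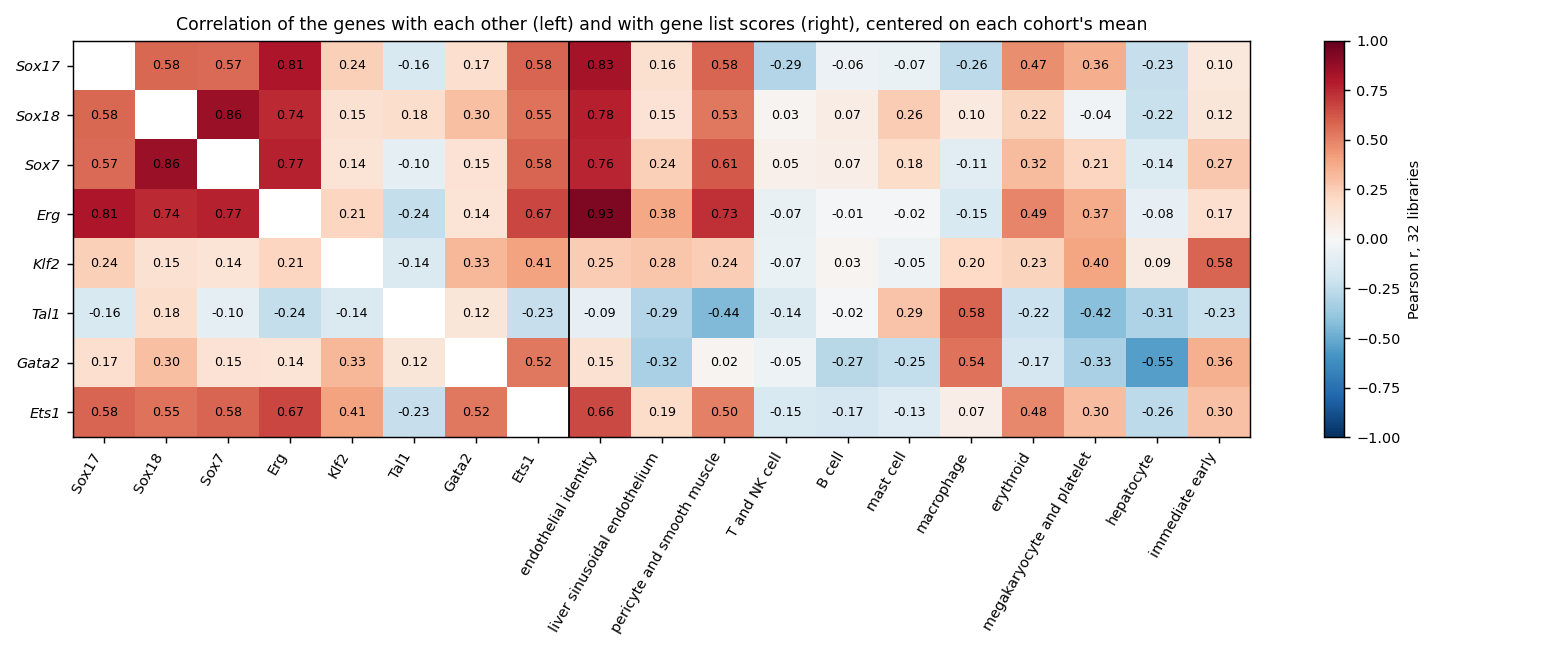
Pearson r over 32 libraries, centered within each cohort, between the 8 genes (rows) and each other (left columns) or gene list scores (right columns), with color from -1 (blue) to 1 (red). Erg (0.93), Sox17 (0.83), Sox18 (0.78) and Sox7 (0.76) run with the endothelial score, and Tal1 (0.58) and Gata2 (0.54) have their highest list r with the macrophage score, at 0.44 and 0.31 without its 2 farthest libraries.

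Markers of other cells of the tumor were read in the same fit, in which 1.77% of all genes were called and 16% were under 0.05 unadjusted. Of 8 macrophage genes 2 were called higher, Cd14 (0.71, adjusted p = 0.0307) and Fcgr1 (0.73, adjusted p = 0.0405), and 0 lower. Of 11 T and NK cell genes tested 0 were called in edgeR (2 under 0.05 unadjusted, median 0.66), and the smallest p were those of Cd4 (0.81, adjusted p = 0.283) and Lck (0.56, adjusted p = 0.295). Of 6 erythroid genes tested 0 were called (4 under 0.05 unadjusted, median -2.22), with Hbb-bs at -2.51 (adjusted p = 0.0553) and Hba-a1 at -2.15 (adjusted p = 0.0647). Of 14 hepatocyte genes 0 were called (1 under 0.05 unadjusted, median 1.64), with Hpd at 2.60 (adjusted p = 0.303) and Apoa2 at 1.94 (adjusted p = 0.345). The mean hepatocyte score was higher at the low dose than with vehicle in the dose (7.25 against 5.88) and DC-101 (7.42 against 2.17) cohorts, and lower in the anti-PD1 cohort (5.77 against 8.02). Of 2 B cell genes tested 0 were called (1 under 0.05 unadjusted, median 0.80), of 3 megakaryocyte and platelet genes 0 (1 under 0.05 unadjusted, median -0.98), and of 10 immediate early genes 0 (2 under 0.05 unadjusted, median -0.17). Of 2 mast cell genes tested 1 was called lower, Kit (-1.09, adjusted p = 0.0361), a receptor that other cells also make. The other, Hdc, was at -0.20 (adjusted p = 0.923). The proteases of mast cells were too low for that fit. In the anti-PD1 cohort Cma1 was at 4.0 (adjusted p = 0.264), Mcpt4 at 3.97 (adjusted p = 0.332), Cpa3 at 3.12 (adjusted p = 0.274) and Tpsb2 at 2.78 (adjusted p = 0.368), each under 0.05 unadjusted (11.8% of all genes). Kit was lower there, at -1.02 (adjusted p = 0.417), also under 0.05 unadjusted, and Hdc was at -1.41 (adjusted p = 0.554). Tpsb2 was at 4.06 in the dose cohort (adjusted p = 0.738) and -1.07 in the DC-101 cohort (adjusted p = 0.650). The part of these cells in the values of the 8 genes was not tested beyond the fit with the hepatocyte score.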

How the data were processed

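RNA of 32 bulk tumors was sequenced from Illumina TruSeq Stranded mRNA libraries. Per the labels and the study's methods, the authors trimmed reads with cutadapt 2.4, aligned them to GRCm38 with STAR 2.7.2a and deposited raw gene counts in 3 tables, 1 per cohort. The strand setting of the counting is not given in the sources used here, so reads of Ets1 and its antisense gene Gm27240 (at most 44 reads) cannot be told apart. Gene symbols matched 99.93% of the 54446 gene IDs. Sequences are RefSeq's.

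Counts were analysed in R 4.3.3 with edgeR 4.0.16 (TMM, filterByExpr with a minimum count of 10 and total of 15, robust quasi-likelihood F-test, 2-sided, Benjamini-Hochberg over all genes tested). Each cohort was fitted with all its groups, and the low dose over 3 cohorts with cohort as a term. Log2 CPM used a prior count of 2. Limma voom 3.58.1, DESeq2 1.42.0, other scalings and filters, a replicate block, covariates and leaving out libraries were alternatives. The method was checked on simulated counts. Intervals are 95%. The low dose, high dose, DC-101, anti-PD1 and combination changes within a cohort share a vehicle group and are not independent.

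Each of the 8 genes is named for the low dose over 3 cohorts and for every other treatment against vehicle. From each gene list up to 4 genes with the smallest p in the fit over 3 cohorts are named, or up to 2 where none was called. Cd34, Clec4g and the mast cell genes other than Kit and Cpa3 were chosen after their values were seen. Lists covered other endothelial transcription factors, endothelial identity, reported targets, sinusoidal and lymphatic endothelium, pericytes, T and NK cells, B cells, macrophages, mast cells, erythroid cells, megakaryocytes, hepatocytes and immediate early genes. The genes and lists were chosen with earlier results of these data known. The study describes the libraries of a treatment group as tumors, but the labels do not tie them to animals, so p-values measure the spread between these samples. No pair of 36 within groups agreed within sampling noise (chi-square per degree of freedom 12.9 to 834.2).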

Additional observations from a re-analysis of the deposited data

How the results depend on the processing

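Over 3 cohorts Sox17 and Erg stayed called without each of the 20 libraries in turn, with 2 to 3 of the 8 genes called (1.01% to 1.99% of all genes), the gain being Sox7. The count of called genes was 1 with at least 10 counts in every library (1.85% of all genes), a filter that drops Sox17. It was 5 with DESeq2 (5.76% of all genes), 0 with the endothelial score as a covariate (0%), 1 without the dose cohort (0.402%) and 1 without the DC-101 cohort (0.108%). Without the anti-PD1 cohort it was 3 (2.59%), since Sox7 then passed (-1.01, adjusted p = 0.0392). Within cohorts Sox17 passed for the low dose in the dose cohort when only the 2 groups were fitted (-1.65, adjusted p = 0.0494). With DESeq2 the count was 1 for high against low dose (18.6% of all genes) and 2 for the low dose in the DC-101 cohort (7.09%). It was 3 for DC-101 (2.8%) and 2 for the low dose in the anti-PD1 cohort (2.73%). For high against low dose, edgeR fits without 1 library called a gene of the 8 only when replicate 3 of the high dose was left out. That gene was Sox17 (1.90, adjusted p = 0.0271). The cause was not tested, beyond the fewer genes or samples of the filter, the 2-group fit and the fits without a cohort or library.

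Replicate numbers did not pair the samples, since same-numbered libraries correlated above 0.1 in 2 of 9, 4 of 9 and 6 of 18 pairs. With a replicate block Sox17 was at -1.65 and Erg at -1.30, and the block changed no count of calls among the 8 genes. Over all cohorts together 2 of the 8 genes were called with the block, beside 1.14% of all genes in place of 1.77%. The block turned Klf2 at the high dose to 0.011 and Tal1 with DC-101 to -0.004.

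Signs turned only for values that were not called or that had the endothelial score in the fit. With that score as a covariate, over 3 cohorts Sox18 was at 0.42, Sox7 at 0.14, Gata2 at 0.0087 and Ets1 at 0.0075. For the low dose in the dose cohort Sox18 was then at 0.27, Erg at 0.040 and Gata2 at -0.099. For the high dose Sox17 was at 0.086, Erg at 0.065 and Klf2 at 0.098, and for high against low dose Sox7 was at -0.033. For the low dose in the DC-101 cohort Sox7 was at 0.060 and Ets1 at 0.12, for DC-101 Tal1 was at -0.38, and for DC-101 against the low dose Erg was at -0.047. For the low dose in the anti-PD1 cohort Sox18 was at 0.81, Sox7 at 0.65, Tal1 at -0.21 and Gata2 at 0.12, for anti-PD1 Sox17 was at 0.22 and Sox18 at 0.46, and for the combination Tal1 was at -0.16. With the hepatocyte score as a covariate, Klf2 was at 0.034 and Gata2 at 0.076 for the high dose, Sox7 at -0.24 and Erg at -0.029 for high against low dose, and Tal1 at 0.37 for the low dose in the DC-101 cohort. Gata2 was then at -0.22 for anti-PD1, -0.0088 for the combination and 0.21 for the combination against anti-PD1. Gata2 was at -0.0057 for the low dose in the dose cohort with upper quartile scaling, Tal1 at -0.019 for DC-101 with limma voom, and Klf2 at 0.17 over the low dose without the anti-PD1 cohort. Erg in the combination group moved from 1.53 to 1.5 log2 CPM with a prior count of 0.5.

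Leaving out 1 library at a time turned further signs of uncalled values, given here as lowest and highest. For the low dose in the dose cohort Klf2 was at -0.085 to 0.18 and Gata2 at -0.060 to 0.079. For the high dose Sox17 was at -1.09 to 0.25, Erg at -1.13 to 0.057, Klf2 at -0.41 to 0.15 and Gata2 at -0.82 to 0.028. For high against low dose Sox18 was at -0.75 to 0.28, Sox7 at -0.069 to 0.59, Erg at -0.10 to 1.11, Klf2 at -0.49 to 0.072, Gata2 at -0.83 to 0.013 and Ets1 at -0.24 to 0.099. Tal1 with DC-101 was at -0.40 to 0.32. For DC-101 against the low dose Sox18 was at -0.45 to 0.031, Sox7 at -0.62 to 0.016, Erg at -0.048 to 0.64, Klf2 at -0.35 to 0.079 and Tal1 at -0.33 to 0.39. Gata2 for the low dose in the anti-PD1 cohort was at -0.32 to 0.076. For anti-PD1 Sox18 was at -0.36 to 0.27 and Klf2 at -1.0 to 0.094, and for the combination Klf2 was at -0.62 to 0.47. For the combination against anti-PD1 Erg was at -0.02 to 0.31 and Gata2 at -0.20 to 0.024.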

Other observations

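At the high dose, 9 of 27 other endothelial transcription factors tested were called in edgeR, 6 lower and 3 higher, beside 0 of the 8 genes described above and 15.6% of all genes. The difference between these counts was not tested. The factors with the smallest p, named after their values were seen, were Bcl6b, an endothelial repressor, which fell by 3.00 on the log2 scale (SE 0.43, adjusted p = 0.0159), and Hey1, a Notch target of arterial endothelium, which fell by 2.52 (SE 0.36, adjusted p = 0.0165). Etv6, an ETS repressor, fell by 0.57 (SE 0.11, adjusted p = 0.0265), and Foxo1, a factor of endothelial quiescence, rose by 0.55 (SE 0.11, adjusted p = 0.0311). Gata6 (2.77, adjusted p = 0.0440) and Epas1 (2.29, adjusted p = 0.0480), both also made by liver cells, rose. Hepatocyte scores were 6.50 to 12.13 at the high dose and 4.16 to 7.47 in vehicle, and their part in these values was not tested.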
